A study of Mus musculus with 12 samples.

Results

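The 41 genes described here encode enzymes of fatty acid synthesis, activation, oxidation and storage in mouse CD8+ T cells. They were listed by name, found in the authors' deposited table of gene symbols and joined by identifier to a count table of 56748 genes. All 41 were present and all 41 had enough counts to be tested, 15 of them in synthesis and elongation, 5 in activation, 17 in oxidation and 4 in storage. RNA was sequenced in bulk from 12 libraries, 3 in each of 4 groups. Cells had been expanded either with 5 mM dichloroacetate (DCA), which blocks the kinases that inactivate pyruvate dehydrogenase, or without it. Experiment 1 has 3 DCA and 3 untreated libraries, and its cells carry the OT-1 receptor transgene (C57BL/6-Tg(TcraTcrb)1100Mjb/J) by the strain and genotype tags, while its titles name Pmel-1. Experiment 2 has 3 DCA and 3 untreated libraries of Pmel-1 cells with the transgene Tg(TcraTcrb)8Rest on the background B6.Cg-Thy1a/Cy. Every mouse gave 1 DCA and 1 untreated library. All groups share the culture: whole spleens were stimulated with peptide for 24 hours (250 nM SIINFEKL for OT-1, 1 uM gp100 for pmel-1), cells were expanded in IL-2 for 6 more days, and CD8+ cells were sorted on day 7. Receptor transgenic T cells expanded in culture with peptide and IL-2 are the model, and the strain given by the tags, experiment and technical batch coincide, so these cannot be told apart. Ages of the mice were not given.

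Fatty acid synthesis builds palmitate in the cytosol from acetyl-CoA by way of malonyl-CoA, and elongases and desaturases of the endoplasmic reticulum then lengthen it and add double bonds. Oxidation first joins a fatty acid to coenzyme A, moves it into mitochondria as an acylcarnitine and shortens it in repeated rounds of dehydrogenation, hydration, dehydrogenation and thiolysis. Storage joins acyl chains to glycerol and ends in triglyceride. Dividing effector T cells are known for building fatty acids for membranes, and memory T cells for relying more on their oxidation. Pyruvate dehydrogenase makes mitochondrial acetyl-CoA from pyruvate, which links glucose use to both processes.

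The libraries held 28039700 to 41051100 counts each, to 6 digits. The list of 5 CD8 T cell markers summed to 3580 to 4998 CPM (per library total) and the CD4 list to at most 1.19 CPM. The dendritic cell, neutrophil and red cell lists summed to at most 1.89 CPM. The list of 3 NK cell markers, mostly Eomes, which activated CD8 T cells also express, summed to 32.8 to 37.2 CPM with DCA and 38.3 to 59.1 CPM untreated in experiment 1, and to 2.75 to 5.85 CPM with DCA and 6.61 to 8.08 CPM untreated in experiment 2. These sums were lower with DCA in both experiments and lower in experiment 2 in both arms, without overlap. Among 9 B cell markers, Ighm made up nearly all of a summed level of 368 to 438 CPM with DCA and 242 to 376 CPM untreated in experiment 1, and of 494 to 591 CPM with DCA and 400 to 505 CPM untreated in experiment 2. Ms4a1, Pax5, Blk and Cd22 were at 0 in all libraries of experiment 1, and Pax5 was at 0 in the untreated libraries of experiment 2. The macrophage list, mostly Cd68, summed to 10.98 to 30.5 CPM with DCA and 7.91 to 11.2 CPM untreated in experiment 1, and to 16.5 to 19.6 CPM with DCA and 8.04 to 16.9 CPM untreated in experiment 2. Mitochondrially encoded transcripts took 1.32% to 1.58% of counts with DCA and 1.01% to 1.14% untreated in experiment 1, and 2.11% to 2.40% with DCA and 2.27% to 2.85% untreated in experiment 2. The part of these measures in the results below was not tested. In bulk RNA, fewer cells of a type and less RNA per cell cannot be told apart.

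The first question was what expansion with DCA did to these transcripts over both experiments. Of the 41 genes, 6 rose and 12 fell with DCA (adjusted p under 0.05, edgeR's quasi-likelihood test with Benjamini-Hochberg adjustment over all tested genes, as for every adjusted p here unless another tool is named). Over all 15688 genes tested, 7.01% were called higher and 9.8% were called lower. That share depends on the filter: at 5 CPM in 3 libraries, 1250 of 9803 genes were called higher and 1322 lower. The changes were alike in size, with a median absolute log2 fold change of 0.241 over the 41 genes and 0.237 over all genes tested. The rises were in the desaturases Scd1 and Scd2, malic enzyme Me1, the oxidation enzymes Acadm and Eci2, and the acyltransferase Gpat3. The falls lay in elongation (Elovl1, Elovl6, Hacd3, Tecr), activation (Acsl4, Acsl5), oxidation (Cpt2, Hadha, Hadhb, Echs1, Etfa) and storage (Gpat4). Neither Acaca and Fasn, which build palmitate, nor Cpt1a, which gates its entry into mitochondria, passed the test. The median log2 fold change was -0.10 over the 41 genes and -0.02 over all genes tested. Values given in parentheses with an SE are log2 fold changes, DCA over untreated, over both experiments unless one is named, and values per library follow the order of mice 1 to 3. By step the median was -0.06 for synthesis, -0.22 for activation, -0.02 for oxidation and -0.28 for storage.

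**Figure D1:**
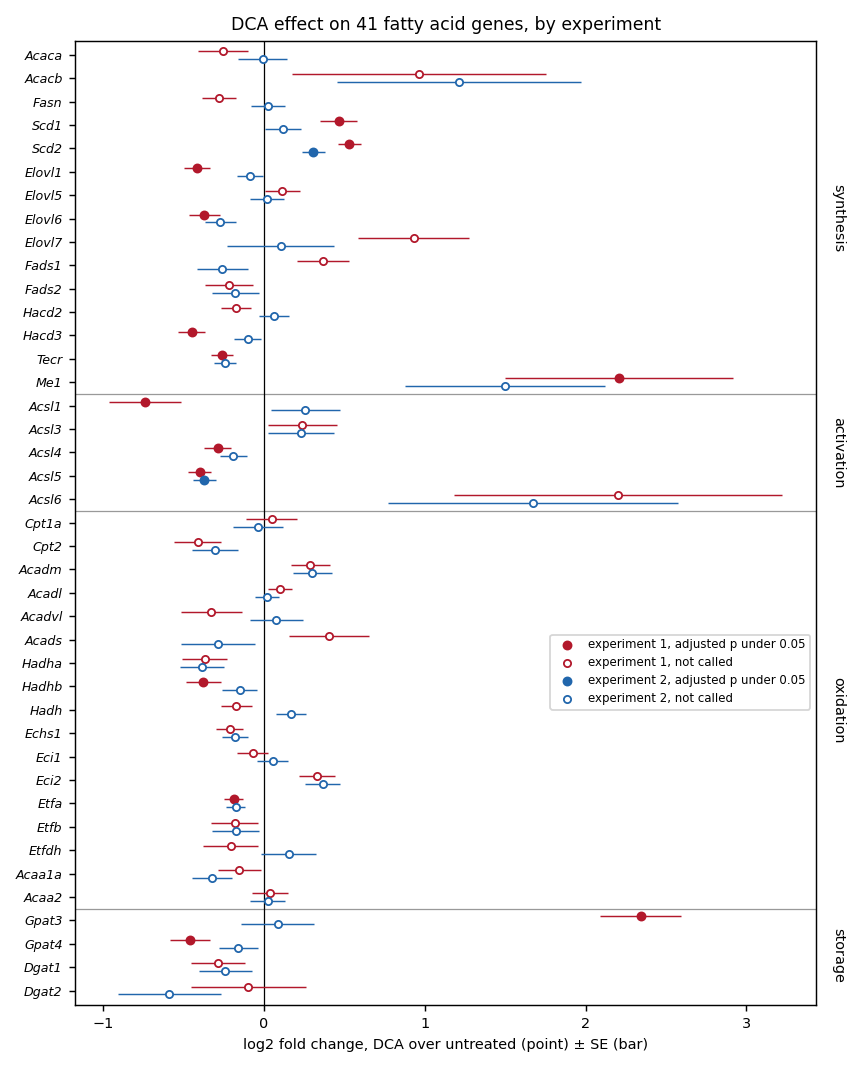
Log2 fold change of each of the 41 genes, DCA over untreated (x axis, point), with its standard error (bar), in experiment 1 (red) and experiment 2 (blue), in the order synthesis, activation, oxidation and storage; filled points have an adjusted p under 0.05. In experiment 1 Gpat3 stands at 2.34 and in experiment 2 at 0.09, while Acsl5 and Scd2 are filled in both.

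These calls did not all carry the same weight. Of the 18 genes, 9 stayed called when any 1 of the 12 libraries was left out: Acsl4, Acsl5, Eci2, Elovl6, Etfa, Hadha, Me1, Scd2 and Tecr. Without untreated library 1 of experiment 1, 10 of the 18 stayed called. Of the 9 genes just named, Acsl5, Eci2, Elovl6, Hadha and Scd2 also stayed called in every other setting tried, and Me1 in every setting that tested it, which leaves out the filter at 5 CPM in 3 libraries. With cyclic loess scaling 11 of the 41 were called, 7 higher and 4 lower, and over all genes the split became 1231 higher and 1041 lower, against 1100 higher and 1538 lower with TMM scaling. In experiment 1 that split was 1069 and 1027 with loess and 889 and 1733 with TMM, and in experiment 2 it was 391 and 216 with loess and 372 and 345 with TMM. Loess ended the calls of Elovl1, Hacd3, Tecr, Acsl4, Hadhb, Echs1, Etfa and Gpat4 (limma's adjusted p of 0.0756 to 0.65). With no filter on low counts the adjusted p was 0.0505 for Cpt2, 0.0857 for Etfa and 0.191 for Echs1, with RLE size factors it was 0.0519 for Scd1, and with a filter at 5 CPM in 3 libraries 0.0506 for Hadhb. Of the 41 genes, 6 had a false discovery rate under 0.05 in the authors' deposited table, and all 6 were among the 18.

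In experiment 1 alone, 4 genes were called higher with DCA (Scd1, Scd2, Me1, Gpat3) and 10 lower (Elovl1, Elovl6, Hacd3, Tecr, Acsl1, Acsl4, Acsl5, Hadhb, Etfa, Gpat4), against 5.67% and 11% of all genes. In experiment 2 Scd2 was called higher and Acsl5 lower, against 2.37% and 2.2% of all genes. This count depended on the tool: of the 41 genes DESeq2 called 2 higher and 5 lower in experiment 2 (over all genes 617 and 895) and limma-voom 3 and 3 (657 and 514), against 372 and 345 over all genes by edgeR. Only a test of the difference itself can show that the experiments differ, and of the 41 genes it called Gpat3, whose DCA effect was lower in experiment 2. None of the 41 was called by edgeR, DESeq2 or limma-voom as having a higher effect in experiment 2, and 7 of the 41 had an unadjusted p under 0.05 by edgeR in either direction. Over all genes 0.28% were called in that direction and 0.051% were called lower. Each of these counts changed when single libraries were left out: between 6 and 14 genes were called in experiment 1, 1 to 3 in experiment 2, and 0 to 1 for the difference. The contrasts within experiments share 1 estimate of the spread over the 4 groups, and the scaling also changed with the libraries used. Without any 1 library of experiment 2, the experiment 1 values of all genes moved by a median of 0.051 to 0.052. Genes called lower in experiment 1 then numbered 1085 to 1187, against 1733 with all libraries. Without 1 library of experiment 1 the median move was -0.010 to 0.011. The parts of spread and scaling in these counts were not tested. In experiment 1 the count was 9 without DCA library 1 of experiment 1, 6, 7 and 7 without DCA libraries 1, 2 and 3 of experiment 2, and 8, 7 and 8 without untreated libraries 1, 2 and 3 of experiment 2. Of the 14 genes, Acsl5, Elovl1, Gpat3, Hacd3, Scd1 and Scd2 stayed called whichever library was left out, and the other 8 each lost the call without 6 to 10 of the libraries (largest adjusted p = 0.21, for Etfa without DCA library 1 of experiment 2). In experiment 2 the count was 1 without DCA library 1 or 2 or untreated library 2 or 3 of that experiment.

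Acaca encodes acetyl-CoA carboxylase, which makes malonyl-CoA, and in experiment 1 it was at 14.2, 16.3 and 11.7 CPM with DCA, against 15.02, 18.8 and 16.5 CPM untreated, and in experiment 2 at 18.1, 16.9 and 16.1 CPM with DCA, against 18.5, 14.99 and 17.8 CPM untreated. The arms overlapped in both experiments (-0.13, SE 0.11, adjusted p = 0.493). Fasn encodes fatty acid synthase, and in experiment 1 it was at 75.01, 68.4 and 87.2 CPM with DCA, against 91.3, 104 and 84.5 CPM untreated, and in experiment 2 at 123, 111 and 112 CPM with DCA, against 121, 116 and 103 CPM untreated. Its log2 fold change was -0.12, SE 0.08, adjusted p = 0.361, with the arms overlapping in both experiments. Acacb encodes the carboxylase on the outer mitochondrial membrane and had 1 to 54 counts per library, with a log2 fold change of 1.10, SE 0.53, adjusted p = 0.183.

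Scd1 and Scd2 encode the desaturases that turn stearate and palmitate into oleate and palmitoleate. In experiment 1 Scd2 was at 439, 422 and 395 CPM with DCA, against 263, 307 and 298 CPM untreated, and in experiment 2 at 425, 395 and 412 CPM with DCA, against 339, 314 and 342 CPM untreated. No untreated library reached a DCA library of the same experiment, and Scd2 was higher with DCA in 6 of 6 mice (0.42, SE 0.06, adjusted p = 0.00043). The effect was called in experiment 1 (0.53, SE 0.07, adjusted p = 0.000389) and in experiment 2 (0.31, SE 0.07, adjusted p = 0.0256). The call in experiment 2 ended with a term per mouse (replicate block, adjusted p = 0.0559) and without any 1 library of experiment 2 (largest adjusted p = 0.182, without untreated library 2 of experiment 2). In experiment 1 Scd1 was at 78.5, 90.1 and 84.3 CPM with DCA, against 48.8, 68.1 and 66.2 CPM untreated, and in experiment 2 at 84.8, 88.8 and 96.9 CPM with DCA, against 81.3, 81.2 and 86.3 CPM untreated. The arms were apart in experiment 1 and overlapped in experiment 2, where the highest DCA library and the highest untreated library both came from mouse 3. Scd1 was higher with DCA in 6 of 6 mice (0.29, SE 0.09, adjusted p = 0.0424; 0.47 in experiment 1, adjusted p = 0.0134). The call of Scd1 was lost without any DCA library of experiment 1, any untreated library of experiment 1, DCA libraries 2 or 3 of experiment 2 or untreated libraries 1 or 2 of experiment 2 (largest adjusted p = 0.0974, without DCA library 2 of experiment 1). Scd1 and Scd2 are related copies, and how reads shared between them were counted is not given.

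Me1 encodes cytosolic malic enzyme, which makes NADPH for fatty acid synthesis. It was a low transcript, with 40, 38 and 17 counts with DCA and 13, 0 and 8 counts untreated in experiment 1, and 113, 135 and 120 counts with DCA and 47, 28 and 49 counts untreated in experiment 2. Scaled to depth that was 1.53, 1.36 and 0.662 CPM with DCA and 0.507, 0 and 0.282 CPM untreated in experiment 1, and 3.32, 3.73 and 3.02 CPM with DCA and 1.43, 0.848 and 1.27 CPM untreated in experiment 2. In each experiment every DCA library was above every untreated library (1.80, SE 0.47, adjusted p = 0.0153). Because 1 untreated library had 0 counts, the size of the fitted change in experiment 1 (2.21, adjusted p = 0.0466, and 0.0652 with the replicate block) depends on the prior count.

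Elongation adds carbons to a finished acyl chain in a cycle of condensation, reduction, dehydration and reduction. Elovl6 condenses palmitate-length chains, and in experiment 1 it was at 32.9, 34.5 and 31.9 CPM with DCA, against 43.7, 42.01 and 42.6 CPM untreated, and in experiment 2 at 42.8, 49.3 and 42.01 CPM with DCA, against 54.4, 56.9 and 50.3 CPM untreated. The arms did not overlap in either experiment, and Elovl6 was lower with DCA in 6 of 6 mice (-0.32, SE 0.07, adjusted p = 0.0062; -0.37 in experiment 1 and -0.27 in experiment 2). Elovl1 makes very long saturated chains, and in experiment 1 it was at 143, 177 and 173 CPM with DCA, against 224, 215 and 216 CPM untreated, and in experiment 2 at 187, 180.5 and 201 CPM with DCA, against 201, 208 and 193 CPM untreated. The groups were apart in experiment 1 and overlapped in experiment 2 (-0.25, SE 0.07, adjusted p = 0.0289; -0.41 in experiment 1, adjusted p = 0.00388). The call of Elovl1 was lost without DCA libraries 2 or 3 of experiment 1 or any untreated library of experiment 1 (largest adjusted p = 0.0677, without untreated library 1 of experiment 1).

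Hacd3 encodes a dehydratase of the same cycle, and in experiment 1 it was at 68.6, 71.4 and 79.4 CPM with DCA, against 98.99, 105 and 94.4 CPM untreated, and in experiment 2 at 97.2, 93.1 and 103 CPM with DCA, against 108, 107 and 98.6 CPM untreated. It was lower with DCA in every mouse of experiment 1, and the arms overlapped in experiment 2 (-0.27, SE 0.08, adjusted p = 0.0217; -0.45 in experiment 1, adjusted p = 0.00268). The call of Hacd3 was lost without DCA libraries 1 or 2 of experiment 1 or untreated library 2 of experiment 1 (largest adjusted p = 0.0584, without DCA library 2 of experiment 1). Tecr encodes the reductase that closes the cycle, and in experiment 1 it was at 759.8, 844 and 864 CPM with DCA, against 969.6, 916 and 1067 CPM untreated, and in experiment 2 at 502, 491 and 520.5 CPM with DCA, against 574, 592 and 621 CPM untreated. The DCA libraries were the lower ones in both experiments, with no overlap (-0.25, SE 0.05, adjusted p = 0.00356). Under cyclic loess scaling the log2 fold changes were -0.13 for Elovl1, -0.17 for Hacd3 and -0.09 for Tecr, with limma's adjusted p at 0.173, 0.0874 and 0.198 in the same order. With the replicate block the adjusted p was 0.0738 for Elovl1 and 0.0655 for Hacd3.

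The other members of this step did not pass the test. Elovl5, an elongase of polyunsaturated chains, had a log2 fold change of 0.07 and Elovl7, another elongase, one of 0.51 (adjusted p = 0.62 and 0.202). Fads1 and Fads2, the desaturases of polyunsaturated chains, were at 0.05 and -0.20, and the dehydratase Hacd2 at -0.06. Fads1 stood at 0.37 in experiment 1 and at -0.26 in experiment 2, and the test of that difference gave an adjusted p of 0.211.

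**Figure D2:**
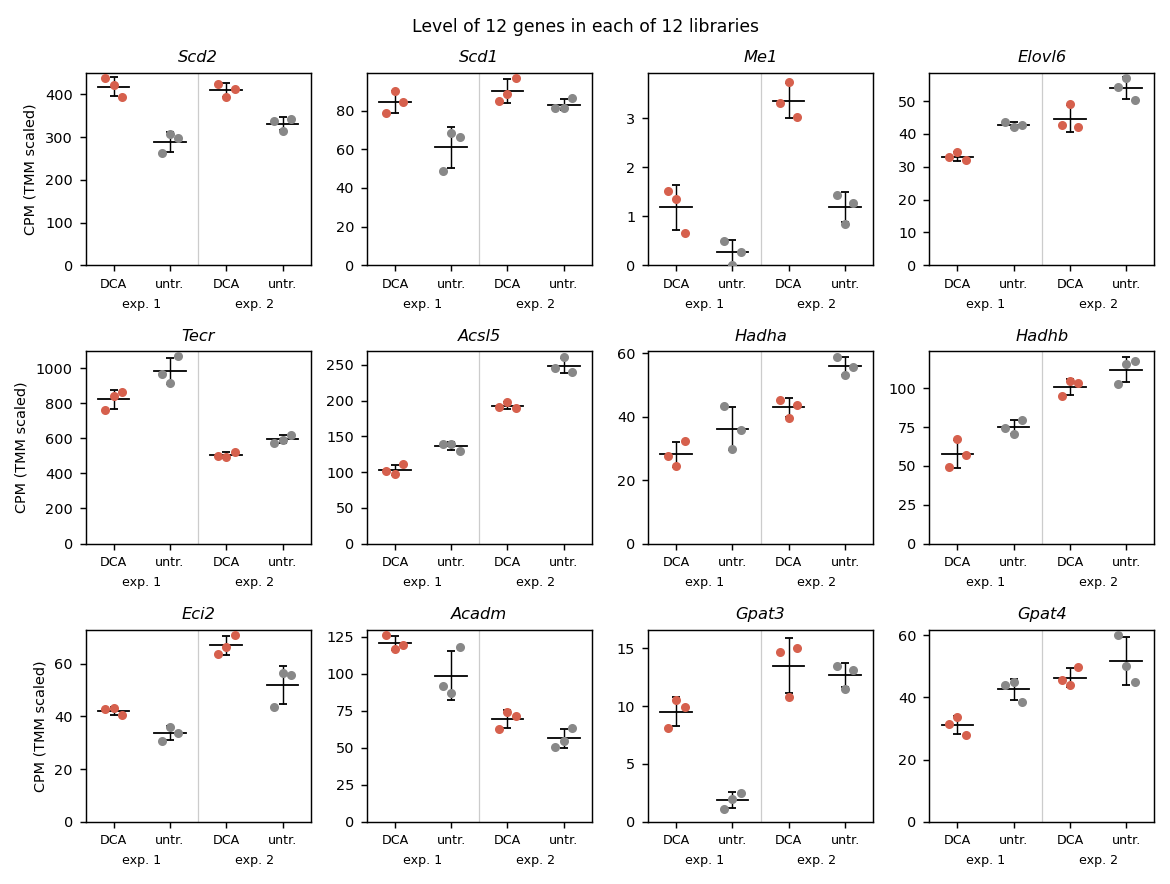
Level of 12 genes in CPM after TMM scaling (y axis from 0), DCA and untreated libraries of experiment 1 and then of experiment 2; points are libraries, and bars are the mean and SD of 3. Scd2, Me1, Elovl6, Tecr and Acsl5 separate the arms in both experiments, while Gpat3 separates them in experiment 1 and not in experiment 2.

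Long-chain acyl-CoA synthetases activate fatty acids for every later use. Acsl5 carried the largest share of their summed level per kilobase, 54.6% with DCA and 57.3% untreated in experiment 1, and 65.98% with DCA and 70.2% untreated in experiment 2 (means of 3 libraries). In experiment 1 Acsl5 was at 102, 96.8 and 111 CPM with DCA, against 139, 139 and 129.7 CPM untreated, and in experiment 2 at 191, 199 and 189 CPM with DCA, against 246, 260.4 and 241 CPM untreated. The arms stood apart in both experiments, and Acsl5 fell in each of them (-0.40, SE 0.07, adjusted p = 0.0019 in experiment 1; -0.37, SE 0.07, adjusted p = 0.00982 in experiment 2). Over both it was the member with the smallest adjusted p (-0.38, SE 0.05, adjusted p = 0.000337). The 250 bases before its start on the + strand of chr19:55253119-55253368 (RefSeq, GRCm38.p6) are shown because Acsl5 was lower in all 6 mice and called in every setting tried. The capitals mark CCAAT, the NF-Y box, found at position -117.
Acsl5: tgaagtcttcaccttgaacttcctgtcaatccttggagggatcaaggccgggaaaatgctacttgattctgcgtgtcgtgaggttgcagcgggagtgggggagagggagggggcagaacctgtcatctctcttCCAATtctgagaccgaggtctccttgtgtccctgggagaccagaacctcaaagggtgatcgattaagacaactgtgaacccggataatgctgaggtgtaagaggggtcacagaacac

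Acsl4, which prefers arachidonate, followed with smaller changes: in experiment 1 Acsl4 was at 77.8, 89.3 and 75.9 CPM with DCA, against 91.8, 104 and 100.3 CPM untreated, and in experiment 2 at 83.3, 82.2 and 83.9 CPM with DCA, against 95.6, 94.8 and 93.5 CPM untreated. No DCA library reached an untreated library of its experiment (-0.24, SE 0.06, adjusted p = 0.0149; -0.29 in experiment 1, adjusted p = 0.0285). With cyclic loess scaling Acsl4 was at -0.14 (limma's adjusted p = 0.122), and with no filter on low counts its adjusted p was 0.0673. Acsl1, the synthetase best known from fat and liver, was at 4.31, 2.795 and 2.999 CPM with DCA and 4.95, 5.900 and 6.001 CPM untreated in experiment 1, and at 8.43, 8.24 and 7.58 CPM with DCA and 7.93, 6.88 and 5.47 CPM untreated in experiment 2. It fell in experiment 1, where the arms did not overlap (-0.74, SE 0.22, adjusted p = 0.0357), but this call was lost on leaving out any of 10 libraries (largest adjusted p = 0.111, without DCA library 2 of experiment 1). In experiment 2 the arms overlapped (log2 fold change 0.26), and the difference of the effects, 1.00, had an adjusted p of 0.156. With the replicate block the adjusted p in experiment 1 was 0.0584. Acsl3, an enzyme of lipid droplets, had a log2 fold change of 0.24, SE 0.15, adjusted p = 0.303. Acsl6, a form best known from brain, had 0 to 67 counts per library and a log2 fold change of 1.90, SE 0.66, adjusted p = 0.0618. It was higher with DCA in 6 of 6 mice and was called with the replicate block (adjusted p = 0.0263), by DESeq2, limma-voom and loess, and with no filter on low counts (adjusted p of 0.0190 to 0.0428).

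Summed per kilobase, the 5 synthetases came to 37.6, 39.97 and 39.1 with DCA and 47.9, 50.2 and 48.1 untreated in experiment 1, in CPM per kilobase. In experiment 2 the sums were 60.1, 61.2 and 58.9 with DCA and 72.9, 75.4 and 70.4 untreated. The DCA sums were below the untreated sums in both experiments, and Acsl5 and Acsl4 made up most of each sum.

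Carnitine palmitoyltransferases carry acyl chains into mitochondria. Cpt1a encodes the outer-membrane enzyme that malonyl-CoA inhibits, and in experiment 1 it was at 13.4, 12.7 and 17.8 CPM with DCA, against 13.7, 12.04 and 16.7 CPM untreated, and in experiment 2 at 19.2, 17.8 and 18.1 CPM with DCA, against 18.1, 19.02 and 19.3 CPM untreated. The arms overlapped in both experiments, and the log2 fold change was 0.01, SE 0.11, adjusted p = 0.975. Cpt2 encodes the inner-membrane enzyme, and in experiment 1 it was at 16.4, 16.2 and 19.2 CPM with DCA, against 26.7, 18.98 and 23.1 CPM untreated, and in experiment 2 at 20.02, 26.4 and 23.4 CPM with DCA, against 29.9, 29.1 and 26.9 CPM untreated. It was lower with DCA in 6 of 6 mice, with the arms apart in experiment 2 and in experiment 1 overlapping where the highest DCA library passed the lowest untreated library (-0.35, SE 0.10, adjusted p = 0.0272). The call of Cpt2 was lost without DCA libraries 1 or 2 of experiment 1, untreated libraries 1 or 3 of experiment 1, DCA library 1 of experiment 2 or untreated libraries 1 or 2 of experiment 2 (largest adjusted p = 0.0774, without DCA library 1 of experiment 2).

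Hadha and Hadhb encode the alpha and beta subunits of the mitochondrial trifunctional protein, which carries out the later steps of each round on long chains. In experiment 1 Hadha was at 27.6, 24.5 and 32.3 CPM with DCA, against 43.3, 29.9 and 35.8 CPM untreated, and in experiment 2 at 45.3, 39.6 and 43.9 CPM with DCA, against 58.9, 53.2 and 55.7 CPM untreated. Hadha was lower with DCA in 6 of 6 mice; the arms were apart in experiment 2 and overlapped in experiment 1 (-0.37, SE 0.10, adjusted p = 0.0148). In experiment 1 Hadhb was at 49.1, 67.2 and 56.9 CPM with DCA, against 74.3, 70.6 and 79.7 CPM untreated, and in experiment 2 at 95.2, 105 and 103 CPM with DCA, against 103, 116 and 118 CPM untreated. Hadhb was also lower in 6 of 6 mice, and the arms were apart in experiment 1 and overlapped in experiment 2 (-0.26, SE 0.08, adjusted p = 0.0387; -0.38 in experiment 1, adjusted p = 0.0282). The call of Hadhb was lost without DCA libraries 1 or 3 of experiment 1, any untreated library of experiment 1, DCA library 1 of experiment 2 or untreated libraries 2 or 3 of experiment 2 (largest adjusted p = 0.0843, without untreated library 3 of experiment 1). With the replicate block its adjusted p was 0.0645.

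In GRCm38.p6 the start sites of Hadha and Hadhb face away from each other on chromosome 5, at 30154980 and 30155253, with 272 bases between them. The 250 bases before the start of Hadhb, chr5:30155003-30155252 on the + strand (RefSeq), lie between both starts and are shown because both subunits fell and this stretch stands before both genes. The capitals mark GGGCGG, the GC box, which was found 2 times here.
Hadha and Hadhb: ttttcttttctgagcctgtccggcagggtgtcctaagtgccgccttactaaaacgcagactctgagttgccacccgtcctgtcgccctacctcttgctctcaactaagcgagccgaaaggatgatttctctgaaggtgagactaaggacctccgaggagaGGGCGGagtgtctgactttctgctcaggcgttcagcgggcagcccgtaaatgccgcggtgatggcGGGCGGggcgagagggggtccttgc

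RefSeq promoters of 300 bases (250 before and 50 after the start) were matched for 34 of the 41 genes, and 5 motifs were searched in them on both strands. Some genes had more than 1 window, which gave 39 windows for the 34 genes. GGGCGG stood in 28 of the 39 windows (25 of the 34 genes) and in 35.66% of 32851 windows of all genes. CCAAT stood in 19 of the 39 windows (18 of the 34 genes) and in 37.41% of all windows. CACGTG, an E-box, was found in the windows of Elovl5 and Hacd3 (7.15% of all windows). The sterol regulatory element TCACNCCAC was found in that of Acsl1 (1.242%), and TCAAGGTCA, the estrogen-related receptor element, in that of Acsl6 (0.4231%). In the window of Elovl1 a CCAAT match shared bases with a GGGCGG match, and no other matches of different motifs did. The 32851 windows were not limited to genes expressed in these cells, while all 41 genes passed the count filter, so the shares are not like for like. The windows of Hadha and Hadhb share 228 bases, so a GGGCGG match there (-188 for Hadha, -90 for Hadhb) was counted for both. A match is a description of the letters only.

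Acyl-CoA dehydrogenases open each round and differ in chain length. Acadm, for medium chains, rose: in experiment 1 Acadm was at 126, 117 and 119 CPM with DCA, against 91.6, 86.9 and 118 CPM untreated, and in experiment 2 at 62.9, 74.3 and 71.6 CPM with DCA, against 50.7, 54.9 and 63.6 CPM untreated. It was higher with DCA in 6 of 6 mice, although the arms overlapped in both experiments (0.30, SE 0.08, adjusted p = 0.0247). The call of Acadm was lost without untreated libraries 1 or 2 of experiment 1, DCA libraries 2 or 3 of experiment 2 or untreated libraries 1 or 2 of experiment 2 (largest adjusted p = 0.0627, without DCA library 2 of experiment 2). The other dehydrogenases were not called: Acadl for long chains had 0.06, Acadvl for very long chains -0.10 and Acads for short chains 0.03 as log2 fold change. Acads stood at 0.41 in experiment 1 and -0.28 in experiment 2, with an adjusted p of 0.383 for the difference.

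Echs1 encodes the short-chain enoyl-CoA hydratase of the next step, and in experiment 1 it was at 78.3, 80.7 and 72.1 CPM with DCA, against 94.9, 91.4 and 81.4 CPM untreated, and in experiment 2 at 78.4, 78.9 and 81.4 CPM with DCA, against 87.8, 90.8 and 91.7 CPM untreated. The change was small and the arms did not overlap in either experiment (-0.20, SE 0.06, adjusted p = 0.0324). The call of Echs1 was lost without DCA library 3 of experiment 1, untreated libraries 1 or 2 of experiment 1, any DCA library of experiment 2 or any untreated library of experiment 2 (largest adjusted p = 0.0965, without DCA library 1 of experiment 2). Its adjusted p was 0.0616 with the replicate block and 0.0801 with a filter at 5 CPM in 3 libraries. Eci2, an isomerase that prepares unsaturated chains for oxidation in mitochondria and peroxisomes, changed the other way: in experiment 1 Eci2 was at 42.8, 43.2 and 40.5 CPM with DCA, against 30.8, 36.1 and 33.7 CPM untreated, and in experiment 2 at 63.7, 66.3 and 70.98 CPM with DCA, against 43.6, 56.6 and 55.6 CPM untreated. Every DCA library was above every untreated library of its experiment (0.35, SE 0.08, adjusted p = 0.00742). Eci1, the main mitochondrial isomerase, had a log2 fold change of -0.01 (adjusted p = 0.965). Per kilobase Eci2 made up 13.6% of both isomerases with DCA and 10.6% untreated in experiment 1, and 29.1% with DCA and 24.8% untreated in experiment 2. These shares rest on lengths of 5540 bases for Eci2 and 2127 for Eci1. In CPM Eci2 averaged 42.2 with DCA and 33.5 untreated in experiment 1, and 67.01 and 51.97 in experiment 2. Eci1 averaged 103 CPM with DCA and 108 untreated in experiment 1, and 62.8 and 60.4 in experiment 2.

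Electrons of the first step pass to the electron transfer flavoprotein. Etfa, its alpha subunit, was among the highest members per kilobase: in experiment 1 Etfa was at 688, 736 and 713 CPM with DCA, against 816, 774 and 842 CPM untreated, and in experiment 2 at 269, 262 and 279.6 CPM with DCA, against 296, 315 and 302 CPM untreated. The arms did not overlap in either experiment (-0.18, SE 0.04, adjusted p = 0.00957; -0.19 in experiment 1, adjusted p = 0.0403). Under cyclic loess scaling it was at -0.03 over both experiments (limma's adjusted p = 0.65), and at 0.01 in experiment 1, so the direction there depended on the scaling. Etfb, the beta subunit, had a log2 fold change of -0.18, SE 0.10, adjusted p = 0.267, and Etfdh, the oxidoreductase that accepts the electrons, one of -0.02. Hadh, the dehydrogenase for shorter hydroxyacyl chains, was at 0.00, the mitochondrial thiolase Acaa2 at 0.03 and the peroxisomal thiolase Acaa1a at -0.24 (adjusted p = 0.0907; called by DESeq2, 0.0390, and limma-voom, 0.0345). Summed per kilobase, the 17 oxidation genes came to 697, 734 and 729 with DCA and 768, 752 and 816 untreated in experiment 1, in CPM per kilobase. In experiment 2 the sums were 537, 523 and 549 with DCA and 549, 543 and 568 untreated. The arms were apart in experiment 1 and overlapped in experiment 2. Etfa alone averaged 388 CPM per kilobase with DCA and 442 untreated in experiment 1, so most of each sum there and most of the gap came from that gene.

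Gpat3 and Gpat4 encode acyltransferases of the endoplasmic reticulum that start glycerolipid synthesis from glycerol 3-phosphate. In experiment 1 Gpat3 was at 8.09, 10.5 and 9.97 CPM with DCA, against 1.13, 1.996 and 2.47 CPM untreated. In experiment 2 it was at 14.7, 10.8 and 15.1 CPM with DCA, against 13.5, 11.5 and 13.1 CPM untreated. The DCA libraries of experiment 1 stood far above their untreated libraries, while in experiment 2 the arms overlapped and all 6 libraries were above every library of experiment 1. Gpat3 thus rose in experiment 1 (2.34, SE 0.25, adjusted p = 0.00016) but was not called in experiment 2 (0.09, SE 0.23, adjusted p = 0.903), and the difference of the effects was itself called (-2.26, SE 0.34, adjusted p = 0.0146). The last call was lost without any DCA library of experiment 2 or untreated libraries 1 or 2 of experiment 2 (largest adjusted p = 0.0717, without DCA library 2 of experiment 2). In those fits 1 to 4 of all genes were called higher for the difference and 0 lower, against 44 and 8 with all libraries. Its value stayed between -2.49 and -2.004 whichever library was left out. The pooled value (1.13, SE 0.35, adjusted p = 0.0366) averages unequal effects. The call of Gpat3 was lost without any DCA library of experiment 1, any untreated library of experiment 1 or untreated library 2 of experiment 2 (largest adjusted p = 0.103, without untreated library 2 of experiment 1). It was also lost with the replicate block (adjusted p = 0.0797) and by limma-voom (0.67, adjusted p = 0.133). The 250 bases before its start, chr5:100845979-100846228 on the + strand (RefSeq, GRCm38.p6), are shown because Gpat3 is the member whose DCA effect differed between experiments. The capitals mark GGGCGG, which occurs 3 times, the first pair sharing letters.
Gpat3: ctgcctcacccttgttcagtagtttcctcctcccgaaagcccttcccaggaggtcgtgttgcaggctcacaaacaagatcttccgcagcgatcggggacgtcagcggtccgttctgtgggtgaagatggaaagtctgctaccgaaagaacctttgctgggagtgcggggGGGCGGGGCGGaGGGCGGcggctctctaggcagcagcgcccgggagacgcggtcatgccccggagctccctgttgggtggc

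Gpat4 changed in the opposite direction: in experiment 1 Gpat4 was at 31.3, 33.7 and 27.9 CPM with DCA, against 43.99, 45.1 and 38.6 CPM untreated, and in experiment 2 at 45.6, 43.8 and 49.6 CPM with DCA, against 60.1, 50.2 and 44.9 CPM untreated. It fell in experiment 1, with no overlap, and overlapped in experiment 2 (-0.31, SE 0.09, adjusted p = 0.0359; -0.46 in experiment 1, adjusted p = 0.0198). The call of Gpat4 was lost without any DCA library of experiment 1, untreated libraries 1 or 2 of experiment 1, DCA libraries 1 or 2 of experiment 2 or untreated library 1 of experiment 2 (largest adjusted p = 0.0869, without DCA library 3 of experiment 1). With the replicate block the adjusted p of Gpat4 over both experiments was 0.0651. Of the summed level per kilobase of both enzymes, Gpat3 made up 36.99% with DCA and 7.78% untreated in experiment 1, and 35.6% with DCA and 32.1% untreated in experiment 2.

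Dgat1 and Dgat2 encode unrelated enzymes that add the last acyl chain of triglyceride. In experiment 1 Dgat1 was at 15.9, 27.4 and 20.8 CPM with DCA, against 28.2, 26.9 and 23.1 CPM untreated, and in experiment 2 at 51.2, 46.5 and 49.2 CPM with DCA, against 65.1, 48.7 and 59.4 CPM untreated. The arms overlapped in both experiments (-0.26, SE 0.12, adjusted p = 0.147). Dgat2 was at 0.992, 1.58 and 0.818 CPM with DCA and 1.09, 0.953 and 1.59 CPM untreated in experiment 1, and at 5.37, 2.904 and 5.66 CPM with DCA and 8.48, 5.79 and 6.67 CPM untreated in experiment 2. In experiment 2 no DCA library reached an untreated library, in experiment 1 they overlapped, and the gene was not called (-0.37, SE 0.24, adjusted p = 0.339).

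**Figure D3:**
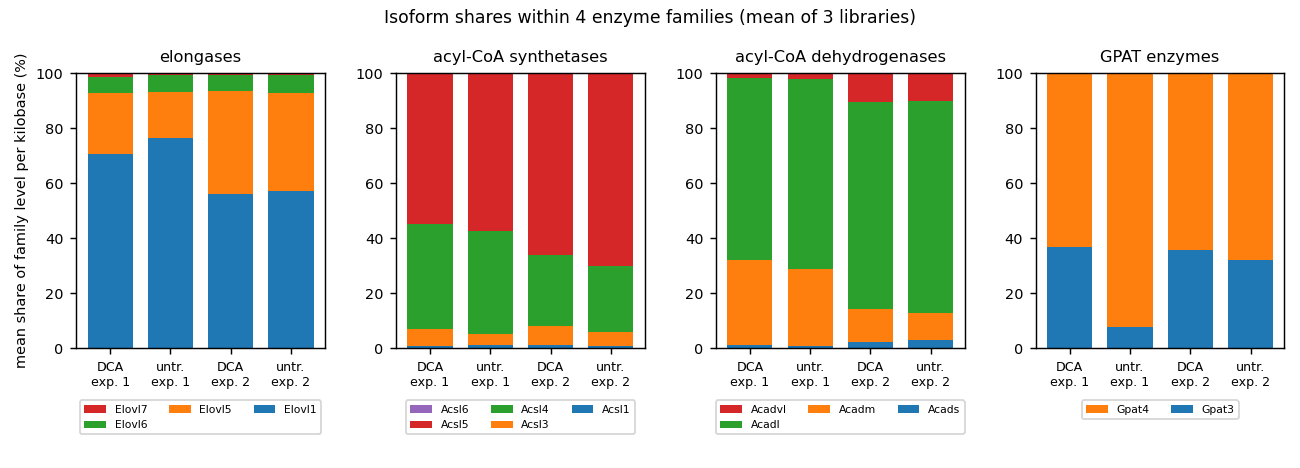
Mean share of each gene in the summed level per kilobase of its enzyme family (stacked bars, y axis in percent, 3 libraries per bar), for DCA and untreated cells of experiment 1 and then experiment 2. Gpat3, the lower part of each bar in the last panel, is 37.0% with DCA and 7.78% untreated in experiment 1, and 35.6% with DCA and 32.1% untreated in experiment 2.

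The direction with DCA was the same in both experiments for 31 of the 41 genes, 13 higher and 18 lower, which is 75.61%, against 64.25% of all genes tested. Across the 41 genes the log2 fold changes of experiment 1 and experiment 2, which share no library, had a Spearman rho of 0.5078 and a Pearson r of 0.7209, against 0.3445 and 0.2649 over all genes. These are descriptions across genes, which are not independent replicates. A Pearson r leans on extreme values, and genes with few counts were among them. In experiments 1 and 2 Me1 was at 2.21 and 1.50 (0 to 135 counts), and Acsl6 at 2.20 and 1.67 (0 to 67 counts). Acacb was at 0.97 and 1.22 (1 to 54 counts), while Gpat3, at 2.34 and 0.09, differed between the experiments. The coefficients were not computed without these genes. The sign was shared by 12 of the 15 synthesis genes and by 11 of the 17 oxidation genes. Of the 10 genes with opposite signs, 7 were lower in experiment 1 and higher in experiment 2, and 3 were the other way round.

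**Figure D4:**
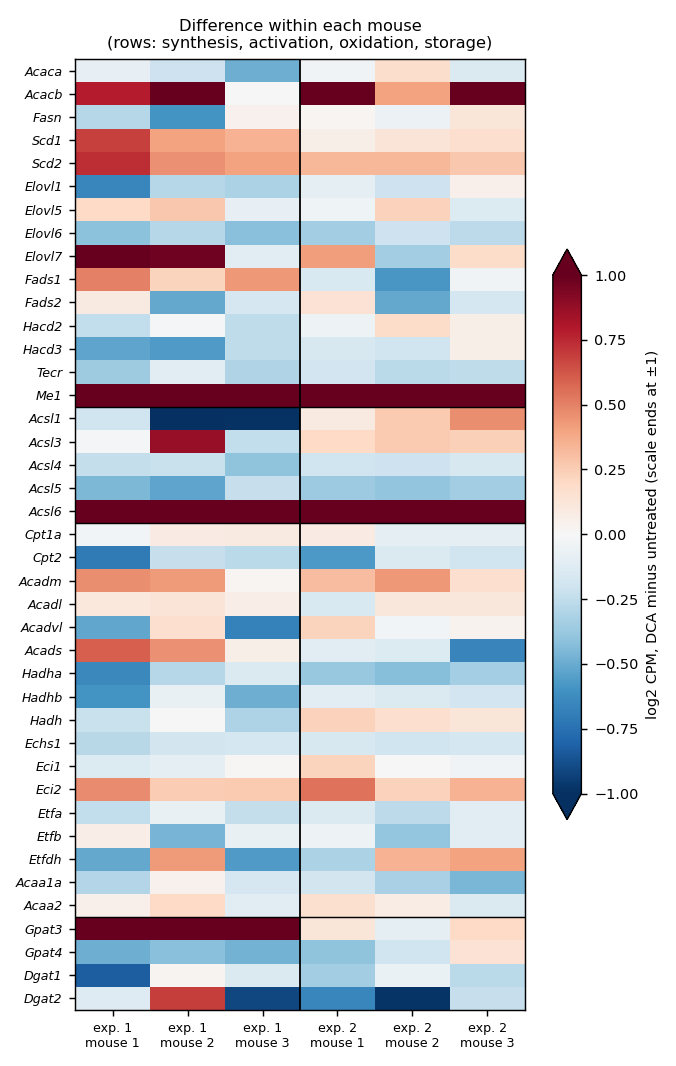
Difference in log2 CPM, DCA minus untreated, within each of 6 mice (columns) for the 41 genes (lines, in the order synthesis, activation, oxidation, storage); red is higher and blue lower with DCA, and the colours end at 1 either way. Scd2, Me1 and Eci2 are red in all 6 mice and Acsl5, Elovl6 and Hadha are blue in all 6, while Gpat3 is deep red in the 3 mice of experiment 1 only.

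Levels of different genes were compared per kilobase of the length that the authors' table gives. These lengths ran from 1164 bases for Etfb to 17074 for Acaca, so every rank, share and sum per kilobase depends on them. Whether they match the transcripts made in these cells was not tested. Averaged over the 4 groups, the highest were Tecr at 290.1 CPM per kilobase and Etfa at 286, Acadl at 87.9, Acaa2 at 85.4, Elovl1 at 70.9 and Scd2 at 66.3. At the other end were Acaca at 0.952, Elovl7 at 0.875, Acsl1 at 0.568, Me1 at 0.389, Acacb at 0.0736 and Acsl6 at 0.0512. Per kilobase the order of the leading pair turned between experiments, while in CPM the mean of Tecr was above that of Etfa in all 4 groups. In experiment 1 Tecr averaged 328 ± 22.1 CPM per kilobase with DCA and 393 ± 30.6 untreated, and Etfa averaged 388 ± 13.2 with DCA and 442 ± 18.6 untreated (SD, n = 3 each). In experiment 2 Tecr averaged 201 ± 5.88 with DCA and 238 ± 9.41 untreated, and Etfa averaged 147 ± 4.92 with DCA and 166 ± 5.04 untreated. Per kilobase Acadl was below Acaa2 in experiment 1, at 66.5 against 79 with DCA and 62.1 against 77 untreated. It was above Acaa2 in experiment 2, at 112 against 93.6 with DCA and 111 against 92 untreated. In CPM the mean of Acadl was above that of Acaa2 in all 4 groups. The main desaturase by level was Scd2, with 81.6% of both with DCA and 81.03% untreated in experiment 1, and 80.3% with DCA and 78.1% untreated in experiment 2. Among the elongases Elovl1 held 70.5% with DCA and 76.6% untreated in experiment 1, and 56.2% with DCA and 57.2% untreated in experiment 2, the rest being mostly Elovl5. Acadl held most of the acyl-CoA dehydrogenase level in all groups, at 66.5% with DCA and 69.01% untreated in experiment 1, and 75.5% with DCA and 76.9% untreated in experiment 2. Dgat1 made up 95.01% of the Dgat level with DCA and 95.5% untreated in experiment 1, and 91.5% with DCA and 89.3% untreated in experiment 2.

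Other genes of the pathway came from 7 lists with 116 names, of which 85 were tested; 11 rose and 7 fell with DCA over both experiments (median 0.12), against 7.01% and 9.8% of all genes tested. Of 12 other synthesis and elongation genes none was called higher and 2 fell. Hsd17b12, the reductase that follows the elongases in each cycle, was at 61.6, 93.1 and 93.5 CPM with DCA and 155, 177 and 156 CPM untreated in experiment 1, and at 82.2, 89.2 and 87.5 CPM with DCA and 107, 118 and 111 CPM untreated in experiment 2. The arms did not overlap in either experiment (-0.68, SE 0.12, adjusted p = 0.0018). Mecr, a reductase of mitochondrial fatty acid synthesis, was the other called gene (-0.35, SE 0.10, adjusted p = 0.03).

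Among 17 other genes of mitochondrial oxidation 3 rose and 1 fell (median 0.19). The thioesterases that rose, which split acyl-CoA, were Acot9 (0.39, SE 0.07, adjusted p = 0.00142) and Acot13 (0.35, SE 0.08, adjusted p = 0.0068). Acad9, known for assembly of respiratory complex I, fell (-0.60, SE 0.18, adjusted p = 0.0289), with 6.91, 7.203 and 7.98 CPM with DCA and 17.5, 13.6 and 18.04 CPM untreated in experiment 1. In experiment 2 Acad9 was at 20.96, 25.3 and 21.3 CPM with DCA and 27.7, 23.4 and 20.98 CPM untreated, with the arms overlapping. Of 12 peroxisomal genes 3 rose and 1 fell (median 0.20). Phyh, which starts the oxidation of phytanate, was at 55.4, 65.1 and 55.8 CPM with DCA and 32.4, 36.4 and 33.99 CPM untreated in experiment 1, and at 44.9, 36.2 and 51.2 CPM with DCA and 29.1, 30.4 and 35.4 CPM untreated in experiment 2. Within each experiment every DCA library was above every untreated library (0.63, SE 0.10, adjusted p = 0.000889). Scp2, a sterol carrier with thiolase activity, rose (0.34, SE 0.06, adjusted p = 0.00244), and Acot8, a peroxisomal thioesterase, fell (-0.43, SE 0.13, adjusted p = 0.0302).

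Of 18 other genes of glycerolipid synthesis and lipid droplets 3 rose and 1 fell (median 0.09). Hilpda, a droplet protein that inhibits lipolysis, was at 224, 249 and 161 CPM with DCA and 109, 141 and 144 CPM untreated in experiment 1, and at 226, 195 and 219 CPM with DCA and 165, 142 and 169 CPM untreated in experiment 2, with no overlap in either (0.55, SE 0.11, adjusted p = 0.00272). Bscl2, which encodes seipin of the droplet neck, rose (0.27, SE 0.07, adjusted p = 0.0113) and was the 1 gene of the 7 lists called in experiment 2 (0.38, SE 0.08, adjusted p = 0.0178). Gpam, the mitochondrial counterpart of Gpat3 and Gpat4, fell: in experiment 1 Gpam was at 3.86, 3.94 and 5.22 CPM with DCA, against 8.11, 7.36 and 7.02 CPM untreated, and in experiment 2 at 4.199, 6.31 and 4.83 CPM with DCA, against 6.62, 6.81 and 7.24 CPM untreated (-0.61, SE 0.15, adjusted p = 0.0126). In lipolysis 1 of 4 genes rose, Abhd5, the activator of the triglyceride lipase (0.25, SE 0.08, adjusted p = 0.0433). In uptake and binding 1 of 6 rose, the fatty acid transporter Slc27a1 (0.64, SE 0.17, adjusted p = 0.0184). Of 16 regulators of lipid genes none rose and 2 fell, Mid1ip1, a partner of acetyl-CoA carboxylase (-0.42, SE 0.09, adjusted p = 0.00631), and Nr1h2, a liver X receptor (-0.37, SE 0.09, adjusted p = 0.0141).

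The other axis of the design is experiment 2 against experiment 1, in which the strain given by the tags and the technical batch differ together, while the titles name Pmel-1 in both. In DCA cells 22 of the 41 genes were called higher in experiment 2 and 6 lower, against 28.1% and 24.1% of all genes. In untreated cells 22 were called higher and 7 lower, against 26.7% and 25.2% of all genes. The median log2 fold change, experiment 2 over experiment 1, was 0.58 in DCA cells and 0.44 in untreated cells for the 41 genes, and 0.11 in both for all genes. Cyclic loess scaling moved the values of all genes by a median of -0.22 in DCA cells and -0.21 in untreated cells. Members did not all move down: with loess Tecr went from -0.72 to 0.095 in untreated cells. Over all settings run, untreated values reached 0.85 for Scd2, 1.30 for Acadl and 1.33 for Acsl5 (main fit 0.20, 0.84 and 0.87). They went as low as 2.68 for Acadvl and 1.97 for Acads (main fit 2.89 and 2.27). The libraries also differed in make-up, with 18382 to 19551 genes detected in experiment 1 and 23635 to 26571 in experiment 2. TMM factors were 0.818 to 0.934 in experiment 1 and 1.116 to 1.174 in experiment 2. The part of this in the differences between experiments was not tested. All 3 called storage genes of untreated cells were higher in experiment 2 (median of the 4 genes 1.84), and so were both called activation genes. In oxidation 9 genes were higher and 5 lower. When any 1 library was left out, 26 of the 28 calls in DCA cells held, the exceptions being Cpt2 and Elovl1 (largest adjusted p = 0.24, for Elovl1 without DCA library 3 of experiment 2). In untreated cells 25 of the 29 held, the exceptions being Cpt1a, Etfdh, Fasn and Scd2 (largest adjusted p = 0.21, for Etfdh without untreated library 3 of experiment 2).

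In untreated cells the largest of these were Acadvl at 2.89, Gpat3 at 2.76, Dgat2 at 2.53, Acads at 2.27 and Me1 at 2.21. Gpat3, Dgat2, Acads and Me1 were low in untreated cells of experiment 1, averaging 1.87, 1.21, 1.91 and 0.263 CPM. In DCA cells Acadvl was at 44.98, 38.7 and 40.5 CPM in experiment 2, against 3.13, 5.48 and 3.97 CPM in experiment 1. In untreated cells it was at 38.5, 39.4 and 39.6 CPM in experiment 2, against 4.52, 4.89 and 6.39 CPM in experiment 1. The experiments were far apart in both arms. Acads was at 8.03, 10.4 and 9.28 CPM in untreated cells of experiment 2, against 2.07, 1.73 and 1.94 CPM in untreated cells of experiment 1. In DCA cells Acadvl, Dgat2 and Acads were also called higher in experiment 2 (3.30, 2.03 and 1.58), while Gpat3 (0.50, adjusted p = 0.079) and Me1 (1.50, adjusted p = 0.0571) were not.

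The largest differences the other way in both arms were those of Etfa, Etfb, Hacd2, Eci1 and Acadm. Etfa stood at -1.40 and Etfb at -1.02 in DCA cells, and Etfa at -1.41 and Etfb at -1.03 in untreated cells. The size for Etfa depended on the setting, with values up to -0.78 in DCA cells and -0.70 in untreated cells. With single libraries left out it ran from -1.45 to -1.37 in DCA cells and from -1.44 to -1.31 in untreated cells. Hacd2 was at -0.89, Eci1 at -0.72 and Acadm at -0.80 in DCA cells, and in untreated cells at -1.13, -0.84 and -0.81. Tecr was called lower in both arms (-0.70 in DCA cells and -0.72 in untreated cells), but cyclic loess scaling put it at 0.02 in DCA cells and 0.10 in untreated cells, so its direction between experiments depended on the scaling. The sign differed between the arms for Scd2 (-0.03 in DCA cells and 0.20 in untreated cells), Elovl1 (0.21 and -0.12), Elovl7 (-0.07 and 0.76) and Acsl4 (0.04 and -0.06), and none of these differences of effect was called.

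**Figure D5:**
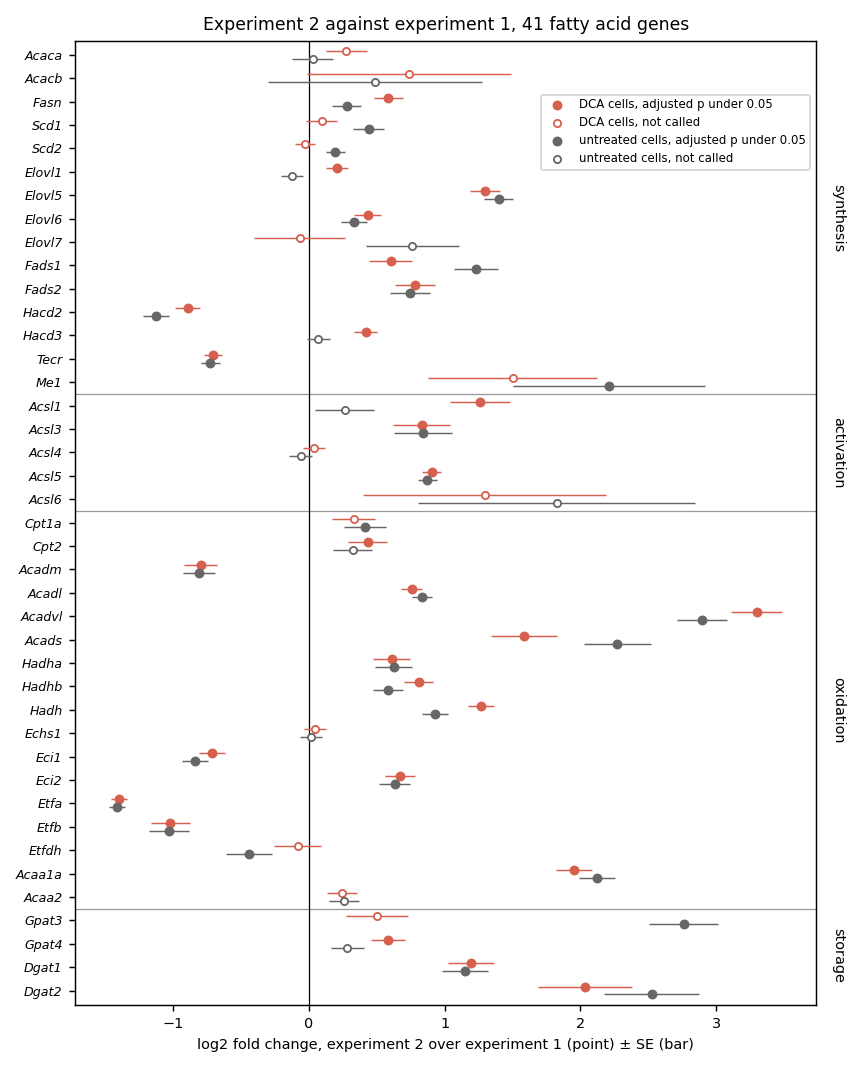
Log2 fold change of each of the 41 genes, experiment 2 over experiment 1 (x axis, point), with its standard error (bar), in DCA cells (red) and untreated cells (grey); filled points have an adjusted p under 0.05. Acadvl lies farthest to the right in both arms and Etfa farthest to the left, while Gpat3 is at 0.50 in DCA cells and at 2.76 in untreated cells.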

How the data were processed

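Total RNA of 12 libraries of CD8+ T cells from 6 mice was analysed. The authors deposited raw read counts per gene. The submitters' processing notes name the build GRCm39 and the tools STAR 2.7.10a, fastp 0.23.2 and edgeR 3.36.0. Which counter, annotation and strand setting were used is not given in the sources, and overlapping genes could not be separated. A second deposited table holds the authors' own log2 fold changes, log2 CPM, p-values and false discovery rates for 15067 genes, per the file headers, with gene lengths that served here to scale levels per kilobase. All value columns were matched (0 unmapped columns).

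The counts went into edgeR 4.0.16 under R 4.3.3 with TMM scaling, filterByExpr by the 4 groups and the quasi-likelihood test; p-values were adjusted by Benjamini-Hochberg over 15688 genes, with a threshold of 0.05. The pooled DCA comparison had a term for experiment, and the other comparisons were contrasts of the means of the 4 groups. The standard error (SE) of a log2 fold change is the absolute value divided by the square root of F. Adjusted p-values rest on 3 libraries per group and set each change against the spread between these libraries. The main fits had no term per mouse, so the DCA and the untreated library of a mouse entered as independent. The fit with the replicate block takes the pairing into account. CPM are counts scaled to the TMM-adjusted library total, in the order of mice 1 to 3. For marker lists the total was unscaled. Replicates of a group differed beyond counting noise (chi-square per degree of freedom 10.8 to 29.82). No molecular identifiers are named in the labels, so reads may not be independent molecules. Libraries were paired by mouse, each mouse having given 1 library to each arm; deviations from group means correlated at 0.044 to 0.083 within a mouse and at -0.069 to -0.0044 between mice. The test code was run on simulated counts with the same spread for every gene and no mouse effect. The changes planted there were larger than most DCA changes reported here. That run therefore gives no error rate or power for the calls above.

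The 41 genes, the 7 pathway lists (116 names, 115 found) and the marker lists were chosen with earlier results of these data known. All members were to be accounted for, with values per library for called members and 10 fixed enzymes; between experiments, the 5 largest differences per direction and members whose sign differed between arms; and of each pathway list, up to 2 called genes per direction with the smallest adjusted p. Alternatives were RLE size factors, cyclic loess with limma 3.58.1, DESeq2 1.42.0, limma-voom, testing without the count filter, a minimum of 5 CPM in 3 libraries, a term per mouse, and each library left out. The GRCm38.p6 promoters of RefSeq were used for sequences and for no coordinates of the counts.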

Additional observations from a re-analysis of the deposited data

Results flagged for a closer look

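The DCA effect on Gpat3 differed between the experiments by a test of the difference itself: -2.26 on the log2 scale (SE 0.34, edgeR's adjusted p = 0.0146), experiment 2 minus experiment 1. With single libraries left out the value ran from -2.49 to -2.004 and the adjusted p reached 0.0717. The untreated libraries of experiment 1 held 29 to 70 counts of Gpat3, against 380 to 507 counts in the untreated libraries of experiment 2.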

How the results depend on the processing

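The counts for experiment 2 against experiment 1 (28 of 41 in DCA cells, 29 in untreated cells) stayed within 1.5 times of those values in every setting run. With cyclic loess the count over both experiments was 11 in place of 18, of which 10 were shared, and the median of the synthesis genes was 0.026 in place of -0.06; the cause was not tested. For experiment 2 alone, where 2 genes were called, DESeq2 called 7 and limma-voom 6, and the paired fit with the replicate block called 1. The block put Hadh at -0.0010 and, of the calls named for DCA, also ended that of Etfa in experiment 1 (adjusted p = 0.0954); the others it changed are given beside the results. Leaving out 1 library gave 10 to 16 called genes over both experiments, 6 to 14 in experiment 1, 1 to 3 in experiment 2 and 0 to 1 for the difference; the lowest of the first was without untreated library 1 of experiment 1. Genes near 0 changed sign, with the range over libraries left out given last: Fads1 (limma-voom -0.028; -0.043 to 0.13), Hacd2 (loess 0.026), Cpt1a (RLE -0.0028, loess -0.010, DESeq2 -0.0034, limma-voom -0.00015; -0.068 to 0.063), Acadvl (limma-voom 0.0093), Acads (loess -0.10, limma-voom -0.15; -0.084 to 0.15), Hadh (RLE -0.0075, DESeq2 -0.0061; -0.024 to 0.063), Eci1 (loess 0.091, 5 CPM filter 0.037; -0.039 to 0.038), Etfdh (loess 0.041, 5 CPM filter 0.020; -0.094 to 0.042) and Acaa2 (-0.0096 to 0.094). Loess also turned Etfa in experiment 1 (0.011) and Tecr between experiments (0.020 in DCA cells, 0.095 in untreated cells). Few counts limited Me1, Acsl6 and Acacb.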
